A study of Homo sapiens with 42 samples.

Results

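The genes described here are 9 tumour suppressors that are textbook examples of silencing by promoter methylation in human cancers: SOCS1, MGMT, BRCA1, CDH1, DAPK1, RASSF1, SFRP1, ID4 and PYCARD. They were chosen by symbol, as the entries of the deposited gene table whose name equals one of these, which gives 9 of 60240 genes. They were followed in 5 human acute myeloid leukaemia (AML) cell lines, SKM-1, KG-1, OCI-AML3 and the sister lines MOLM-13 and MOLM-14, which are grown from patients' leukaemic blasts and are all labelled wild type. Each line received either decitabine, at 100 nM on 3 successive days, or the solvent DMSO. Total RNA was taken at 72 hours and sequenced in 3 libraries per line and treatment, 30 libraries in all. Other labelled libraries of the series, those of OCI-AML2 and THP-1, were not analysed here. DNA methylation was not measured in these files. The labels do not say whether the 3 libraries come from separate cultures, so the p-values reflect variation among libraries that may be technical.

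CpG islands are stretches rich in CG dinucleotides that cover many gene starts and are normally free of methylation. In tumours the cytosines of some islands become methylated, and the gene behind them is then often silent. Decitabine is a cytidine analogue that is built into DNA, where it traps DNA methyltransferases, so that methylation is lost as cells divide. The 9 genes act in unrelated processes: cytokine signalling (SOCS1), DNA repair (MGMT, BRCA1), cell adhesion (CDH1), cell death and growth control (DAPK1, RASSF1), WNT signalling (SFRP1), transcription (ID4) and inflammation (PYCARD).

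The reference promoter sequences show what the genes share and where they differ. RefSeq promoter windows (GRCh38.p14, 300 bases, from 250 before to 50 after a start) were matched by symbol for 7 of the 9 genes. There were 9 windows in all, since BRCA1 and DAPK1 have a pair of starts each. CDH1 and SFRP1 had no entry. The MGMT window held 45 CG dinucleotides, and 3.48% of the 35116 promoter windows of the same length held at least as many. ID4 held 39 (8.71% of windows), the DAPK1 windows 37 and 33 (11.3% and 17.2%), SOCS1 33 and RASSF1 33 (17.2%). PYCARD was lower with 23 (35.8%), and the BRCA1 windows held 17 and 13 (46.0% and 51.7%), close to the middle of all promoters. The RASSF1 window starts inside the gene, at chr3:50337401-50337700 on the minus strand, while GENCODE 29 places the gene's 5′ end at 50340980. The RNA values are per gene and do not tell transcripts from these starts apart. The PYCARD window, the DAPK1 windows and the BRCA1 window with 17 also lie inside the gene bounds of GENCODE 29. A count of CG dinucleotides says nothing of whether they were methylated in these lines. The 4 stretches below are from windows of the gene with the clearest rise (SOCS1), those with the widest spread between lines (MGMT, DAPK1) and the gene nearest to silence (ID4). Each is the longest run without an annotated exon in the 250 bases before the RefSeq start. They are written 5′ to 3′ in the direction of the gene, with every CG dinucleotide in capitals. The DAPK1 stretch lies inside the gene, which GENCODE 29 starts at 87497228. In this order they hold 27, 28, 22 and 34 CG dinucleotides, in 250, 193, 203 and 250 bases.
SOCS1, chr16:11256205-11256454, minus strand: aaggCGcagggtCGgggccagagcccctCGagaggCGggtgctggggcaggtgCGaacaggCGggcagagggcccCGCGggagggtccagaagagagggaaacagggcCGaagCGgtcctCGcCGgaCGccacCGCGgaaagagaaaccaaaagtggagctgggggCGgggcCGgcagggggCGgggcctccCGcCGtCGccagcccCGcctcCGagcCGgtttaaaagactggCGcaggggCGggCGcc
MGMT, chr10:129466991-129467183, plus strand: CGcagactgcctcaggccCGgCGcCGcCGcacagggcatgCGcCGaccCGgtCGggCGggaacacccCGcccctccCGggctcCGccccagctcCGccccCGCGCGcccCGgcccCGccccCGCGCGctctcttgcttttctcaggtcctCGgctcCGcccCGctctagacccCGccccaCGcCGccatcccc
DAPK1, chr9:87498332-87498534, plus strand: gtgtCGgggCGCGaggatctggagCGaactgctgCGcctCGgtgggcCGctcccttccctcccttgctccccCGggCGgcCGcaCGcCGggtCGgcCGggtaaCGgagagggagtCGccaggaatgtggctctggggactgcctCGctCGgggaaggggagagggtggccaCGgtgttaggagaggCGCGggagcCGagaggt
ID4, chr6:19837120-19837369, plus strand: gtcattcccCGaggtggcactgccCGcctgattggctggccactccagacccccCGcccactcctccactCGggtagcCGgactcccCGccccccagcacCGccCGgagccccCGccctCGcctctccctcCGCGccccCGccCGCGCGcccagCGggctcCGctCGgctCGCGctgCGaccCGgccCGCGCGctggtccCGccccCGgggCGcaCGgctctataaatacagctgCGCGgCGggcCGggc

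**Figure D1:**
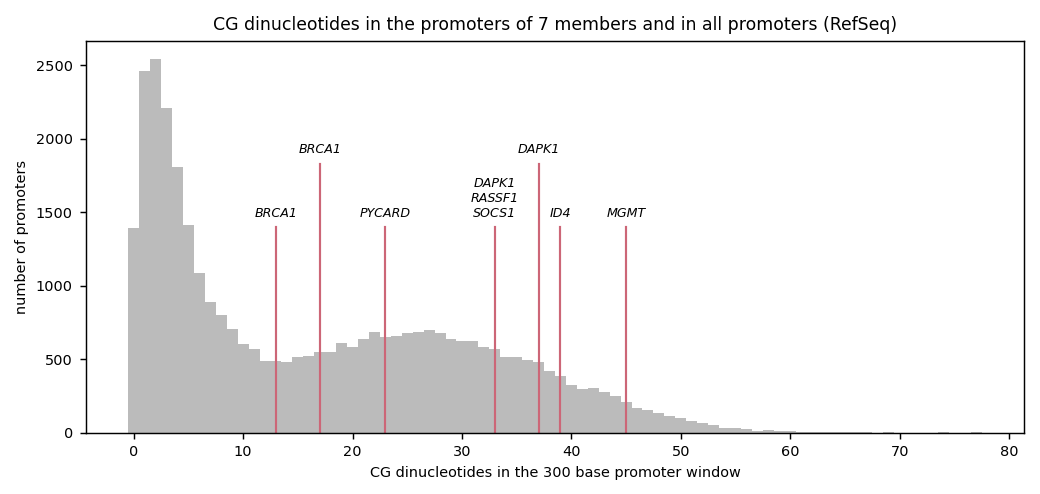
Histogram of the number of CG dinucleotides (x axis) in all 35116 RefSeq promoter windows of 300 bases (y axis, number of windows), with vertical lines at the 9 windows of 7 of the genes. MGMT, at 45, and ID4, at 39, stand in the right tail, and the BRCA1 windows, at 13 and 17, between the low peak and the CG-rich hump.

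The deposited values are estimated counts per gene, normalised by the authors and called normalised counts below. They were compared as log2(normalised count + 1), which understates the change of a gene near 0. The estimated depth differed by line and is given in units of 1e+06 reads in genes per library. The deep lines were MOLM-13 (42.9 to 75.0) and SKM-1 (50.9 to 69.3). In the 3 shallower lines it was 2.97 to 31.2 (KG-1), 1.97 to 17.3 (MOLM-14) and 2.51 to 25.9 (OCI-AML3), and replicate 2 of both arms of each was lowest (6 shallow libraries). In the shallowest library a single read was worth a value of 10.3. For the 3 shallower lines, libraries were tied to labels by a treatment letter whose meaning the labels spell out for the deep lines only, and MOLM-14 is absent from the lines that the design text lists. Most markers of leukaemic myeloid cells were present in every library, among them PTPRC (3643 to 12170 normalised counts), SPI1 (666 to 2182) and CD33 (570 to 2346). Others of that list were low in some libraries. CEBPE was at 0 in 4 (median 8.88), and the lowest values of CD34 and MPO were 1.9 and 13.7. The 9 epithelial markers did not go together: the keratin KRT19 was at 0 in 27 libraries and the adhesion gene EPCAM in 18 (highest 574), while the keratins KRT8 (median 46.6, highest 700.4) and KRT18 (median 48.9, highest 457) were each at 0 in 1. Mitochondrial genes took 8.06% to 19.1% of the total value of a library.

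In DMSO, the 9 genes ranged from abundant to silent. Per kilobase of annotated exon, the mean of the 5 line means was 703 normalised counts for PYCARD, 353 for BRCA1 and 138 for RASSF1. It was 73.5 for DAPK1, 29.8 for SOCS1 and 29.5 for MGMT, then 2.42 for CDH1, 0.761 for SFRP1 and 0.0456 for ID4. So 3 of the genes (PYCARD, BRCA1 and RASSF1) were expressed in all 5 lines, 4 (SOCS1, MGMT, DAPK1 and CDH1) were higher in some lines and low in others, and 2 (SFRP1 and ID4) were near 0 in most. Of the 9 genes, 8 passed the filter on low values (at least 10 in at least 3 libraries) and entered the tests. ID4 did not, and SFRP1 passed through OCI-AML3, where all 6 libraries were above 10. A gene that passed only through the line where it is high had to differ between lines, so SFRP1 is left out of the next counts. The DMSO level differed between lines for 7 of the other 7 (limma F-test, Benjamini-Hochberg adjusted p below 0.05), where 77.9% of the 22168 tested genes did. Over the 10 pairs of lines, 46 of the 70 tests of these genes passed, where 45.1% of all such tests did. For a deep line against a shallower one, line and depth cannot be told apart. Differences were also large within each set: MOLM-13 exceeded SKM-1 by 4.57 on the log2 scale for SOCS1 (limma, adjusted p = 3e-11), and KG-1 exceeded MOLM-14 by 6.43 for MGMT (limma, adjusted p = 2.74e-14).

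**Figure D2:**
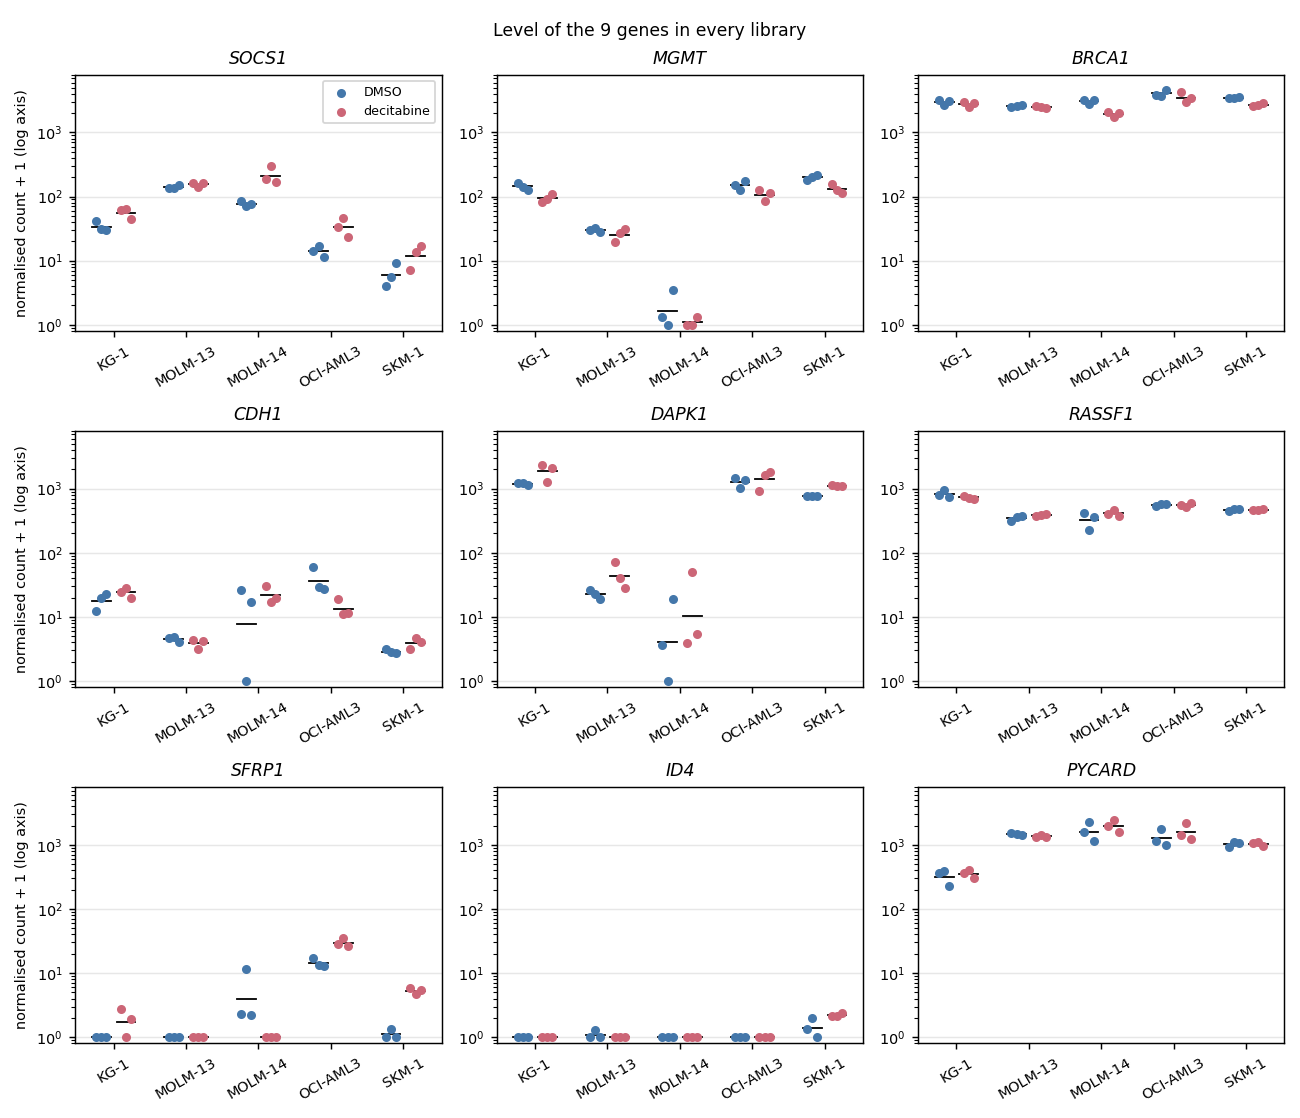
Normalised count + 1 (y axis, log scale) of each of the 9 genes in every library, for 5 cell lines (x axis), with DMSO in blue and decitabine in red and a bar at the mean of the log values of each group of 3. PYCARD, BRCA1 and RASSF1 lie high in every line, with PYCARD lowest in KG-1, MGMT and DAPK1 drop steeply in MOLM-14, and ID4 lies at or near the floor in every line.

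MGMT, the enzyme that removes alkyl groups from guanine (chr10:129467184-129768007, plus strand, GRCh38), had the largest ratio between line means in DMSO. SFRP1 and ID4, with a lowest line mean of 0, have no such ratio. Its highest line mean was 199 ± 19.5 normalised counts in SKM-1 and its lowest 0.923 ± 1.32 in MOLM-14 (SD, n = 3), a ratio of 216. SKM-1, OCI-AML3 (151 ± 23.6) and KG-1 (143 ± 18.1) did not differ from each other (limma, adjusted p between 0.242 and 0.89), MOLM-13 was lower (29.1 ± 2.03), and MOLM-14 was lowest. The 3 MOLM-14 libraries held 0.335, 0 and 2.43, which is between 0 and 2.16 reads each. DAPK1, a calcium-regulated kinase that promotes cell death (chr9:87497228-87708633, plus strand), had nearly the same shape, with a ratio of 185. OCI-AML3 (1284 ± 222), KG-1 (1200 ± 57.8) and SKM-1 (763 ± 13.6) were not distinguishable in pairs (limma, adjusted p between 0.431 and 0.953), while MOLM-13 stood at 21.6 ± 3.43 and MOLM-14 at 6.94 ± 9.85 (SD, n = 3). MOLM-13 and MOLM-14, sister lines from 1 patient, differed by 4.18 on the log2 scale for MGMT (limma, adjusted p = 1.97e-10) and by 2.45 for DAPK1 (limma, adjusted p = 0.011). MOLM-13 is a deep line and MOLM-14 a shallower one, so line and depth cannot be told apart here either.

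SOCS1, which inhibits JAK kinases (chr16:11254405-11256200, minus strand), was the only one of the 8 tested genes for which all 10 pairs of lines differed in DMSO. The order was MOLM-13 (140 ± 8.53), MOLM-14 (76.3 ± 7.87), KG-1 (33.4 ± 6.64), OCI-AML3 (13.1 ± 2.71) and SKM-1 (5.32 ± 2.75), a ratio of 26.3 between the ends (SD, n = 3). The closest neighbours, MOLM-13 and MOLM-14, had an adjusted p of 0.046 by limma. PYCARD, the adaptor that assembles inflammasomes (chr16:31201485-31203450, minus strand), was highest in MOLM-14 (1674 ± 558) and lowest in KG-1 (326 ± 88.5). KG-1 was below each other line (adjusted p at most 2.29e-06, limma), and among the other lines only MOLM-14 and SKM-1 (1034 ± 106) differed (limma, adjusted p = 0.0305). RASSF1, a scaffold of the Hippo kinases (chr3:50329782-50340980, minus strand), ran from 824 ± 112 in KG-1 to 333 ± 95.9 in MOLM-14, a ratio of 2.48. BRCA1, of homologous recombination repair (chr17:43044295-43170245, minus strand), was the most even, from 4079 ± 498 in OCI-AML3 to 2587 ± 128 in MOLM-13, a ratio of 1.58 (SD, n = 3). CDH1, the epithelial cadherin (chr16:68737225-68835548, plus strand), was at 38.0 ± 18.8 in OCI-AML3, 17.4 ± 5.34 in KG-1, 13.8 ± 12.8 in MOLM-14, 3.54 ± 0.407 in MOLM-13 and 1.87 ± 0.226 in SKM-1. Neighbours in this order did not pass the test (limma, adjusted p between 0.18 and 0.555), and 5 of the 10 pairs did, each with OCI-AML3 or KG-1 in it.

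The main question was whether decitabine raised these genes. On the mean over the 5 lines, 1 of the 8 tested genes rose (SOCS1), 2 fell (MGMT and BRCA1) and 5 did not pass (limma, Benjamini-Hochberg adjusted over the tested genes). Of all tested genes 19.5% passed, 12% higher and 7.52% lower. The median log2 difference of the 8 was 0.14, beside 0.06 over all tested genes. Line by line, 6 of the 40 tests passed, 3 higher and 3 lower, where 6.47% of all such tests did, 4.05% higher and 2.41% lower. Of the 8, 0 passed in KG-1, where 3.78% of all tested genes did (3.12% higher, 0.663% lower), or in MOLM-13, where 3.13% did (1.45% higher, 1.67% lower). At an unadjusted p under 0.05, 1 of the 8 was higher (SOCS1) and 0 lower in KG-1, where 9.13% of all tested genes were higher and 4.8% lower. In MOLM-13 0 were higher and 0 lower, beside 6.11% and 6.52%. In MOLM-14 1 rose (SOCS1) and 2 fell (BRCA1 and SFRP1), beside 11% of all tested genes (6.26% higher, 4.77% lower). The SFRP1 fall there came from about 1 read in each control. In OCI-AML3 1 rose (SOCS1), beside 5.37% (3.74% higher, 1.64% lower). In SKM-1 1 rose (SFRP1) and 1 fell (BRCA1), beside 9.02% (5.7% higher, 3.32% lower). These line shares use 1 spread per gene for deep and shallow libraries together, and their order depends on it. With each line fitted alone, 21.1% of all tested genes passed in MOLM-13 and 35.3% in SKM-1. In KG-1 0.474% did, in MOLM-14 1.24% and in OCI-AML3 0.198%. The response differed between lines for 1 of the 8, SFRP1 (limma F-test), where 9.46% of all tested genes differed. SFRP1, which passed the filter through OCI-AML3 and is near 0 in most lines, is kept in all these response counts.

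**Figure D3:**
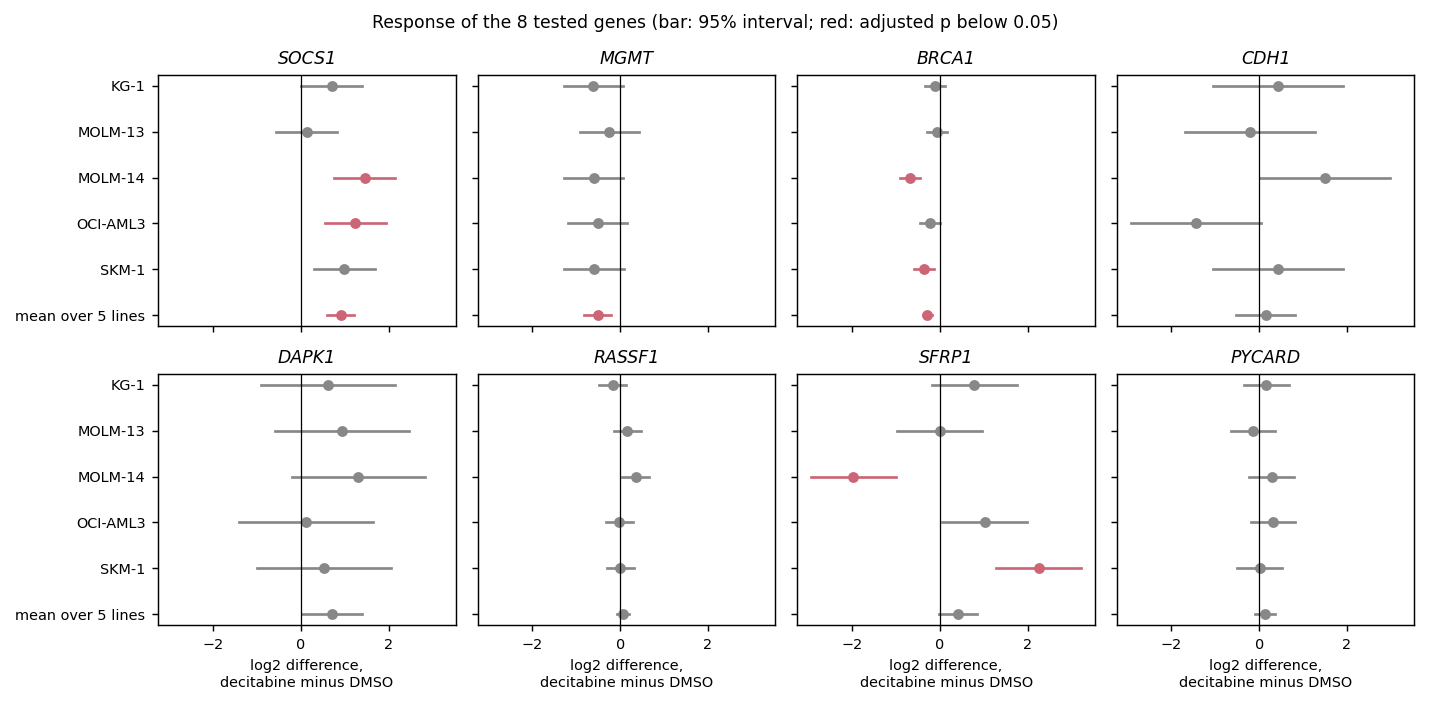
Log2 difference, decitabine minus DMSO (x axis), of the 8 tested genes in each of the 5 lines and on the mean over the lines (y axis), with bars for the unadjusted 95% interval and red for a limma adjusted p below 0.05. SOCS1 lies to the right of 0 in all 5 lines, MGMT and BRCA1 to the left, and SFRP1 on opposite sides in MOLM-14 and SKM-1.

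SOCS1 was higher after decitabine by 0.91 on the log2 scale (SE 0.15, limma, adjusted p = 7.77e-05), with a higher mean in 5 of 5 lines. In MOLM-14 the DMSO libraries held 84.8, 69.3 and 74.8 normalised counts and the decitabine libraries 189, 297 and 167. All 3 treated libraries were above all 3 controls, as they were for 11.2% of tested genes in this line, and the difference was 1.46 (SE 0.34, limma, adjusted p = 0.00536). In OCI-AML3 they held 13.1, 15.9 and 10.5 in DMSO and 32.4, 45.5 and 22.4 after decitabine. Again no treated library fell below a control (10.1% of tested genes), and the difference was 1.25 (SE 0.34, limma, adjusted p = 0.0271). In KG-1 the values were 40.95, 30.5 and 28.6, then 59.9, 62.0 and 43.3. These groups also did not overlap (10.2% of tested genes), but the difference of 0.71 did not pass (limma, adjusted p = 0.345). In SKM-1, the line with the least SOCS1, they were 2.96, 4.65 and 8.34, then 6.22, 12.6 and 15.8. The groups overlapped, and the difference of 0.99 did not pass (SE 0.34, limma, adjusted p = 0.0669). MOLM-13, with the most SOCS1, held 134, 136 and 149 in DMSO and 163, 140 and 160 after decitabine, which overlapped, with a difference of 0.14 (limma, adjusted p = 1).

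The lines with less SOCS1 in DMSO and the one with most were not shown to respond differently (limma F-test, adjusted p = 0.295). After decitabine, SKM-1 (11.6 ± 4.87) and OCI-AML3 (33.4 ± 11.6) still had less SOCS1 than untreated MOLM-13 (140 ± 8.53). The OCI-AML3 result was lost when any of 4 of its libraries was left out: decitabine replicate 1 (adjusted p = 0.0582) or 2 (0.136), or DMSO replicate 1 (0.0611) or 3 (0.0917, all by limma). The SKM-1 difference passed without decitabine replicate 1 (1.35, adjusted p = 0.0151) or DMSO replicate 3 (1.32, adjusted p = 0.0209, limma). It also passed without the 6 shallow libraries of the other lines (0.99, limma, adjusted p = 0.0245) and with scaling to the total without mitochondrial genes (1.05, adjusted p = 0.0477). With library weights it passed too (0.79, limma, adjusted p = 0.00938), as did 37.4% of all tested genes in SKM-1. With a fit of each line alone neither MOLM-14 (limma, adjusted p = 0.0714) nor OCI-AML3 (0.411) passed, nor did they with library weights (0.149 and 0.397). Over the deep lines alone the mean difference was 0.57 (limma, adjusted p = 0.065), and over the 3 shallower lines 1.14 (limma, adjusted p = 0.00223). In these fits 40.5% (deep) and 5.06% (shallower) of all tested genes passed on the mean. The gene lies within the bounds of RMI2, on the opposite strand, and the strand setting of the authors' counting is not given in the sources used here. RMI2 itself differed by -0.0018 on the log2 scale on the mean over the lines (SE 0.07, limma, adjusted p = 0.99).

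MGMT was lower by 0.51 (SE 0.15, limma, adjusted p = 0.0135), and its mean was lower in 5 of 5 lines, though in no single line did the test pass in the fit of all lines. KG-1 went from 163, 141 and 127 normalised counts to 82.0, 89.8 and 109. OCI-AML3 went from 152, 127 and 175 to 124, 83.5 and 113. SKM-1 went from 179, 201 and 218 to 155, 127 and 115. In these 3 lines, which have the most MGMT, all treated libraries were below all controls, as for 6.44% of tested genes in KG-1, 7.42% in OCI-AML3 and 18.9% in SKM-1. The differences were -0.61 in KG-1, -0.51 in OCI-AML3 and -0.60 in SKM-1 (SE 0.33 each, limma, adjusted p between 0.36 and 0.432). SKM-1 passed when fitted alone (-0.60, limma, adjusted p = 0.0104, where 35.3% of all tested genes passed). It also passed with library weights (limma, adjusted p = 0.00557, where 37.4% of all tested genes passed). MOLM-13 held 29.4, 31.0 and 27.0 in DMSO and 18.2, 25.8 and 30.6 after decitabine, and the groups overlapped. MOLM-14, with the least MGMT, held 0, 0 and 0.318 after decitabine, beside 0.335, 0 and 2.43 in DMSO. No rise was detectable there at this depth, at which a single read was worth a value of at least 1.13. The panel result was lost without KG-1 (adjusted p = 0.0564) or SKM-1 (0.117, limma). It was -0.42 over the deep lines alone (limma, adjusted p = 0.019) and -0.57 over the 3 shallower lines (adjusted p = 0.25). Of all tested genes 40.5% passed over the deep lines and 5.06% over the shallower.

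BRCA1 was lower by 0.28 (SE 0.05, limma, adjusted p = 0.000168), with a lower mean in 5 of 5 lines. In MOLM-14 the DMSO libraries held 3153, 2816 and 3187 normalised counts and the decitabine libraries 2077, 1711 and 1984. The groups did not overlap (9.5% of tested genes in this direction), and the difference was -0.67 (SE 0.11, limma, adjusted p = 0.000239). In SKM-1 they held 3496, 3448 and 3539, then 2611, 2672 and 2897. These groups did not overlap either (18.9% of tested genes), and the difference was -0.36 (SE 0.11, limma, adjusted p = 0.0421). KG-1 (-0.11), MOLM-13 (-0.06) and OCI-AML3 (-0.21) did not pass, and their libraries overlapped. The F-test for unequal responses gave an adjusted p of 0.0548 (limma). In the fit of all lines the SKM-1 result passed narrowly: leaving out any 1 of its 6 libraries gave adjusted p between 0.0584 and 0.15 (limma). It was 0.152 with quantile normalization and 0.156 with scaling without mitochondrial genes. Over all settings that left out no single library, the SKM-1 difference ran from -0.38 to -0.29. Its adjusted p ran from 5.57e-07 to 0.156 (limma). Fitted alone, MOLM-14 gave an adjusted p of 0.0575 (limma). The fall of the mean stood over the deep lines alone (-0.21, limma, adjusted p = 0.000844), where 40.5% of all tested genes passed. It also stood over the 3 shallower lines (-0.33, limma, adjusted p = 0.0226), where 5.06% did. NBR2, a transcript on the opposite strand that overlaps the BRCA1 locus, differed by 0.29 on the mean (limma, adjusted p = 0.0765), against the direction of BRCA1. AC060780.1, a noncoding gene on the same strand that overlaps the 5′ part of the locus (445 to 2226 normalised counts), differed by 0.12 on the mean (limma, adjusted p = 0.264) and rose in SKM-1 (0.51, limma, adjusted p = 0.0285), where BRCA1 fell.

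DAPK1 was higher in each line mean after decitabine, by 0.71 over the lines, but the spread was wide (SE 0.33, limma, adjusted p = 0.146). KG-1 went from 1220, 1244 and 1134 normalised counts to 2371, 1282 and 2091. MOLM-13 went from 25.1, 21.6 and 18.2 to 70.0, 38.7 and 27.6. SKM-1 went from 778, 755 and 755 to 1125, 1090 and 1101. In these 3 lines no treated library fell below a control, as for 10.2% of tested genes in KG-1, 22.8% in MOLM-13 and 29.2% in SKM-1. The spread in SKM-1 was small (SD 13.6 in DMSO and 17.7 after decitabine), and the fit of that line alone, which does not share the spread of the other lines, gave 0.54 (limma, adjusted p = 0.000146). In that fit 35.3% of all tested genes passed. In MOLM-14 the values were scattered, 2.60, 0 and 18.2 in DMSO and 2.93, 48.5 and 4.49 after decitabine, and the highest was from a shallow library with 4.72 estimated reads. Without MOLM-14 the mean difference was 0.56 (limma, adjusted p = 0.00753), and without its DMSO replicate 3 it was 0.93 (limma, adjusted p = 0.0163). In MOLM-14 itself the difference passed without that library (2.43, limma, adjusted p = 0.0189). It turned to -0.84 without the 6 shallow libraries (limma, adjusted p = 0.319) and to -0.17 with library weights (adjusted p = 0.941). Over the deep lines alone the mean difference was 0.74 (limma, adjusted p = 0.00563), where 40.5% of all tested genes passed. Over the 3 shallower lines it was 0.69 (limma, adjusted p = 0.538), where 5.06% did. With library weights MOLM-13 passed (0.90, limma, adjusted p = 0.0304), as did 25.5% of all tested genes there. In OCI-AML3 they were 1458, 1034 and 1360, then 903, 1619 and 1843, and overlapped. The difference there, 0.13, changed sign without DMSO replicate 2 (-0.02), decitabine replicate 3 (-0.07) or the 6 shallow libraries (-0.13). RASSF1, the other growth regulator, differed by 0.06 over the lines (SE 0.07, 95% interval -0.07 to 0.20, limma, adjusted p = 0.572). The values are per gene, so RASSF1 transcripts from different starts were not told apart. The largest RASSF1 difference, 0.35 in MOLM-14 (limma, adjusted p = 0.141), came with a shallow DMSO library at 225 beside 409 and 365. It passed without DMSO replicate 1 (0.52, limma, adjusted p = 0.027). MOLM-13 was its 1 line without overlap (22.8% of tested genes in this direction), with 314, 356 and 367 in DMSO and 371, 389 and 399 after decitabine.

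SFRP1, a secreted antagonist that binds WNT ligands (chr8:41261958-41309497, minus strand), was the gene whose response differed between lines (limma F-test, adjusted p = 0.0013). In SKM-1 it went from 0, 0.344 and 0 normalised counts to 4.76, 3.68 and 4.42. These groups did not overlap (29.2% of tested genes), and the difference was 2.26 (SE 0.47, limma, adjusted p = 0.00187). In estimated reads, the 3 controls had at most 1.06 and the treated libraries at least 9.52. OCI-AML3, the line with the most SFRP1, went from 16.4, 12.6 and 11.9 to 27.3, 33.7 and 25.2. All treated libraries were above all controls there as well (10.1% of tested genes), with a difference of 1.03 (SE 0.47, limma, adjusted p = 0.233). In KG-1 it was at 0 in all 3 controls and at 1.72, 0 and 0.900 after decitabine, and in MOLM-13 at 0 in all 6 libraries. MOLM-14 ran the other way, from 1.33, 10.6 and 1.19 to 0 in all 3 treated libraries (all below the controls, as for 9.5% of tested genes), a difference of -1.96 (SE 0.47, limma, adjusted p = 0.0072). Each of those 3 control values is about 1 read (1.06), and the value of 10.6 is from the shallow replicate 2. Without that library the difference was -1.18 (limma, adjusted p = 0.0569), the mean over the 5 lines passed (0.58, adjusted p = 0.00831, against 0.42 and 0.18 with it), and fitted alone MOLM-14 did not pass (adjusted p = 0.368). Without MOLM-14 the mean was 1.02 (limma, adjusted p = 0.000281), and without SKM-1 it was -0.04. With quantile normalization, or without SKM-1, the F-test called 0 of the 8 genes.

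The other genes of low level were CDH1 and ID4. CDH1 differed by 0.14 over the lines (SE 0.32, limma, adjusted p = 0.816). In OCI-AML3, where it was highest, the DMSO libraries held 59.7, 28.5 and 25.9 normalised counts and the decitabine libraries 18.1, 10.2 and 10.4. The treated libraries were all lower, as for 7.42% of tested genes, with a difference of -1.43 that did not pass (SE 0.72, limma, adjusted p = 0.289). In MOLM-14 they held 25.2, 0 and 16.2, then 29.2, 16.1 and 18.7; the value of 0 is from a shallow library, without which the mean over the lines was -0.15. Without DMSO replicate 1 of MOLM-14, the MOLM-14 difference passed (2.38, limma, adjusted p = 0.0302, against 1.50 and 0.195 with it). KG-1 held 11.6, 18.4 and 22.1, then 23.3, 27.7 and 19.0, and MOLM-13 and SKM-1 stayed below 4 in every library. ID4, an inhibitor of basic helix-loop-helix factors (chr6:19837386-19840684, plus strand), was at 0 in all 18 libraries of the 3 shallower lines. MOLM-13 had 0.310 in 1 DMSO library, a single read, and 0 in the other 5. SKM-1 had 0.319, 0.976 and 0 in DMSO, and 1.13, 1.16 and 1.39 after decitabine. That is 3 or 4 reads after decitabine against 0 to 3 in DMSO, so the reads met at 3. The normalised counts did not overlap, as for 29.2% of tested genes in this direction in SKM-1. In a fit of 44246 genes with no filter the SKM-1 difference was 0.69 (SE 0.16, limma, adjusted p = 0.00718). In that fit 6.22% of the genes passed in SKM-1.

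PYCARD differed by 0.13 over the lines (SE 0.11, 95% interval -0.10 to 0.35, limma, adjusted p = 0.488). MOLM-13 went from 1554, 1490 and 1443 normalised counts to 1315, 1427 and 1334. The treated libraries were all lower there, as for 17% of tested genes, but the difference was small (-0.14, limma, adjusted p = 1). MOLM-14 went from 1608, 2262 and 1152 to 1948, 2477 and 1561, and OCI-AML3 from 1153, 1789 and 976 to 1432, 2181 and 1246. In both lines the groups overlapped, and in both the shallow replicate 2 was the highest of its group. KG-1 held 363, 389 and 225, then 364, 410 and 298, and SKM-1 915, 1116 and 1071, then 1064, 1101 and 947. In MOLM-14, OCI-AML3 and KG-1 each treated library was above the control with the same replicate number. In MOLM-13 each was below it, and in SKM-1 the order was mixed. No alternative setting made PYCARD pass on the mean (limma, lowest adjusted p = 0.0558).

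Which other genes followed the pattern of each member was asked of all tested protein-coding genes, as the Pearson correlation over the 10 group means of log2 values. The 10 points are a DMSO and a decitabine mean of each line, so they are not independent, and depth differs between the lines. The values describe these libraries. The closest to SOCS1 were RPS19 (r = 0.963) and DMAC2L (0.959), and to MGMT RAB32 (0.983) and ATPAF1 (0.981). DAPK1 was closest to TIGD4 (0.985) and ECHDC3 (0.984), and CDH1 to CX3CL1 (0.988) and ZNF699 (0.961). SFRP1 was closest to ZNF239 (0.964) and ISLR (0.96), RASSF1 to AC068580.4 (0.976) and UBE2L6 (0.975), and BRCA1 to CERKL (0.944) and RPA3 (0.941). PYCARD was closest to ACP3 (0.991) and MYO10 (0.988).

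The pathways around the 9 genes were read from 10 lists of 140 genes, of which 129 were tested and 42 passed on the mean over the lines. Of all tested genes 19.5% passed, 12% higher and 7.52% lower, and each list count below stands beside these shares. Of the 24 genes of the SOCS family and of JAK-STAT signalling, 7 rose and 0 fell, with a median of 0.10. JAK3, the kinase of lymphocyte cytokine receptors, rose by 1.94 on the mean (SE 0.15, limma, adjusted p = 1.37e-09) and by 6.54 in SKM-1 (limma, adjusted p = 1.88e-12). In SKM-1 it went from at most 1.27 normalised counts to between 142 and 160, while in KG-1 it was at 1196 to 1470 before and 1078 to 1368 after. Markers of lymphoid cells, which also rose for 3 of 6, summed to between 57.9 and 75.1 before and 138 and 145 after in SKM-1, and their part was not tested. STAT5A, a transcription factor downstream of JAKs, rose by 0.52 (limma, adjusted p = 0.00255), most in OCI-AML3 (1.42), and STAT2 of the interferon pathway by 0.50 (limma, adjusted p = 9.82e-05). SOCS3, which like SOCS1 carries a kinase inhibitory region, was higher in MOLM-14 (1.34, limma, adjusted p = 0.0147) but not on the mean (0.40, adjusted p = 0.0815).

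DNA repair genes beside MGMT and BRCA1 that passed were lower after decitabine, with MPG as the 1 exception. Of 11 genes of alkylation and mismatch repair, 3 fell and 1 rose (median -0.16), and of 17 BRCA1 partners and homologous recombination genes, 7 fell and 0 rose (median -0.23). Among all tested genes 7.52% fell and 12% rose. The exonuclease EXO1 fell by 0.43 (limma, adjusted p = 0.00224). XRCC2, a homologous recombination factor, fell by 0.36 (limma, adjusted p = 1.16e-05). BARD1, which forms a dimer with BRCA1, differed by -0.31 (limma, adjusted p = 0.289).

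Of the 12 genes of the cadherin junction and its repressors, 5 rose (median 0.31), where 12% of all tested genes rose. The catenin CTNND1 rose by 0.78 (SE 0.12, limma, adjusted p = 3.12e-05) and JUP, plakoglobin, by 0.74 (limma, adjusted p = 0.00247). Epithelial markers, a list that holds CDH1, moved in the same direction, with 4 of 8 tested higher (9 listed). Their summed level went from between 512 and 552 to between 1267 and 1347 in SKM-1, and their part in the result was not tested. ZEB1, a repressor of CDH1, rose by 0.36 (limma, adjusted p = 0.00112), and without MOLM-13, where it rose by 1.33, the difference was 0.12 (adjusted p = 0.223). SNAI2, another repressor, rose by 0.71 (limma, adjusted p = 0.0157), and without OCI-AML3 it gave 0.36 (adjusted p = 0.254). Of 6 death-associated kinases and partners, 2 rose (median 0.12): STK17B by 0.19 (limma, adjusted p = 0.0116) and STK17A by 0.15 (adjusted p = 0.0438), the latter no longer past the threshold without any of 21 of the 30 libraries. Of 15 tested RASSF and Hippo genes (16 listed), 5 rose (median 0.20). RASSF2 rose by 0.29 (SE 0.03, limma, adjusted p = 1.29e-08), most in OCI-AML3 (0.90) and MOLM-14 (0.45). RASSF4 moved in opposite directions, up by 3.00 in KG-1 (limma, adjusted p = 5.97e-07) and down in SKM-1 (-1.10, adjusted p = 0.0244); without KG-1 its mean difference was 0.11 (limma, adjusted p = 0.339).

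Of 9 tested WNT antagonists (16 listed), 1 fell and 0 rose (median -0.19), where 7.52% of all tested genes fell and 12% rose. The 1 that fell was ZNRF3, a ligase that removes WNT receptors, at -0.58 (SE 0.06, limma, adjusted p = 5.12e-08), lower in 5 of 5 lines. Of the paralogues of ID4, ID1 and ID2 were expressed in all 5 lines, while ID3 was low, with DMSO means from 0.964 in MOLM-13 to 11.7 normalised counts in KG-1. ID1 rose by 0.99 (SE 0.11, limma, adjusted p = 5.26e-07), ID2 by 0.63 (limma, adjusted p = 3.31e-09) and ID3 by 1.48 (limma, adjusted p = 0.00219). ID1 was highest in SKM-1, at 257 to 320 normalised counts in DMSO and 494 to 551 after decitabine. Among their E protein partners TCF3 fell by 0.31 (limma, adjusted p = 0.00159) and TCF12 fell by 0.23 (adjusted p = 0.0148), so that 3 of the 6 genes of this list rose and 2 fell (median 0.35).

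Of 13 tested inflammasome genes (14 listed), 6 rose and 0 fell (median 0.26), where 12% of all tested genes rose and 7.52% fell. The cytokine IL1B rose by 0.85 (SE 0.13, limma, adjusted p = 2.32e-05), with 20.6 to 25.0 normalised counts in DMSO and 121 to 124 after decitabine in SKM-1, and without SKM-1 the difference was 0.47 (limma, adjusted p = 0.0632). It also rose in MOLM-13 (1.47) and MOLM-14 (1.24), but not in the lines with most of it: KG-1 differed by -0.02, and OCI-AML3 went from 384 to 440.1 normalised counts down to 175 to 301, a difference of -0.82 (limma, adjusted p = 0.1). Over the 3 shallower lines alone it differed by 0.13 (limma, adjusted p = 0.778), where 5.06% of all tested genes passed. The sensor NLRP1 rose by 0.66 (limma, adjusted p = 9.19e-06) and IL18, a cytokine of the same pathway, by 0.59 (limma, adjusted p = 7.65e-06), while CASP1, the protease that PYCARD recruits, differed by 0.26 (limma, adjusted p = 0.176). Monocyte and macrophage markers moved with these genes: 7 of 9 tested rose (10 listed, median 0.97). Their summed level went from between 9414 and 10060 to between 19100 and 19870 in MOLM-13, and from between 24590 and 26200 to between 43390 and 44420 in SKM-1, while CD14 stayed at or below 5.36 in every library. Of 10 leukaemic myeloid markers 6 rose, and of 4 tested fibroblast markers (7 listed) 1 rose. Their part in the result was not tested. In bulk RNA, fewer cells of a type and less RNA per cell cannot be told apart.

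Of 19 tested genes from a list of 25 other genes silenced by methylation in tumours, 0 passed in either direction on the mean (limma). At an unadjusted p under 0.05, 6 were higher and 0 lower, where 18.8% of all tested genes were higher and 11.2% lower, and the median was 0.21. Leaving out 1 library at a time ended the results of 3 of the 31 pathway genes picked for naming (MPG, XRCC3 and STK17A), and 28 stood. Over the 3 shallower lines alone 12 of the 31 passed in the same direction, and over the deep lines alone 23 did, among them JAK3, XRCC2, CTNND1, MOB1A, ZNRF3, ID1, ID2 and NLRP1 in both. Of all tested genes, 5.06% passed over the shallower lines and 40.5% over the deep lines.

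**Figure D4:**
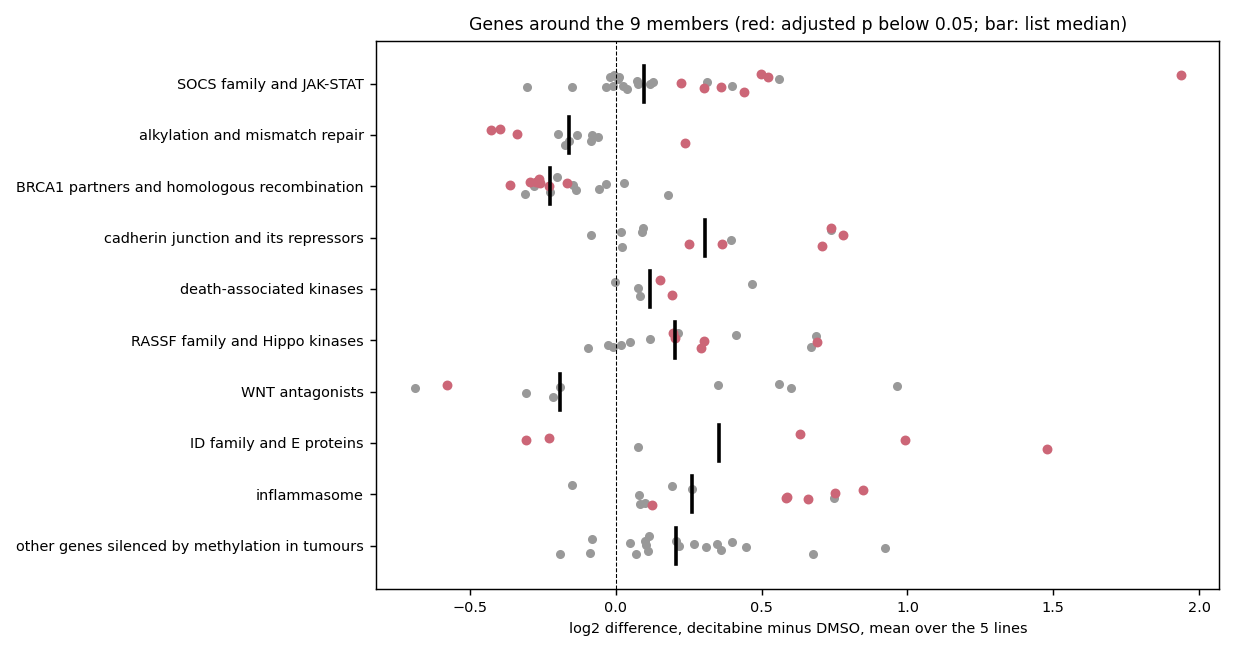
Log2 difference, decitabine minus DMSO, mean over the 5 lines (x axis), of each tested gene of the 10 pathway lists (y axis), with red for a limma adjusted p below 0.05 and a black bar at the median of the list. The points of both repair lists lie mostly left of 0, those of the cadherin, RASSF and inflammasome lists mostly right, and JAK3, at 1.94, is the point farthest to the right.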

How the data were processed

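RNA of 30 libraries, from 5 lines with 3 libraries per line and treatment, was analysed from 1 deposited table of 60240 genes. The values are a signal per gene that the authors deposited: going by the table's name, estimated counts scaled by normalization factors of DESeq2. The submitters' processing notes name hg38, DESeq2, limma, STAR, featureCounts and Salmon 1.2.1, with no roles or order. The annotation release and the strand setting are not given in the sources used here. A further 12 columns belong to no labelled library and were not used.

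Only 49.6% to 71.3% of each library's low values were whole multiples of its smallest step (tolerance 0.02), so no count model was run. Estimated depth is a library's total divided by that step, the value of 1 read. Analysis was on log2(value + 1), for the 22168 genes that reached 10 in 3 or more libraries. The model in limma 3.58.1 (statmod 1.5.0, R 4.3.3) had 10 group means, 20 residual degrees of freedom, trend and robust estimation, Benjamini-Hochberg adjustment over these genes and a threshold of 0.05. All 30 libraries share 1 spread per gene. The procedure was tested on simulated data. Positions and exon lengths are from GENCODE 29 (58064 genes matched), promoter sequences from RefSeq.

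The 9 genes, the lists and the tests were chosen with earlier results of these data known. Named were all 9 genes, up to 4 genes per pathway list with the largest mean difference among those past the threshold, direct partners or paralogues, and the 2 protein-coding genes with the highest correlation to each. Alternatives were the pseudocount, the filter, 2 normalizations, a replicate block, library weights, single-line fits, and fits without a library, a line or the 6 shallow libraries. The split of the lines by depth was added after seeing the data. Some genes that this rule names are not reported here.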

Additional observations from a re-analysis of the deposited data

Results flagged for a closer look

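The response to decitabine differed between lines by the limma F-test for SFRP1 (adjusted p = 0.0013), which was higher in SKM-1 and lower in MOLM-14, the latter from about 1 read per control library. The same test found unequal responses for 11 of the pathway genes named. Among signalling genes these were JAK3 (limma F-test, adjusted p = 6.21e-09) and STAT5A (0.0331). Among junction genes they were CTNND1 (0.0098), which rose in KG-1, MOLM-13 and MOLM-14, and ZEB1 (0.0016), which rose in MOLM-13. The kinase STK17B (0.0343), RASSF2 (5.36e-08) and RASSF4 (9.91e-06) also differed, RASSF4 with opposite directions in KG-1 and SKM-1. So did ID2 (1.66e-05), which rose in 4 lines and in MOLM-13 differed by -0.19 without passing. Of the inflammasome genes, NLRP1 (0.0146), IL1B (2.83e-05) and IL18 (0.0188) differed between lines (limma F-test, adjusted p).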

How the results depend on the processing

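Past the threshold were 6 of the 40 tests by line, 3 of 8 genes on the mean, 1 of 8 for unequal responses and 42 pathway genes. With 1 library left out at a time these counts ran from 5 to 8, 3 to 4, 1 to 2 and 38 to 46. Unequal responses were called for 2 genes with a pseudocount of 5, the replicate block, library weights, no shallow libraries, no OCI-AML3, and over the deep lines alone (MOLM-13, SKM-1). They were called for 0 with quantile normalization (3 tests by line), without SKM-1 (27 pathway genes), and over the 3 shallower lines alone (14 pathway genes). The deep lines alone gave 65 pathway genes, and leaving out MOLM-14 gave 5 genes on the mean. The share of all tested genes past the threshold on the mean moved too. It was 40.5% over the deep lines alone, 5.06% over the 3 shallower lines alone and 10.4% without SKM-1. For the other alternatives the 4 counts stayed within 1.5 times. The cause of these changes was not tested, though fewer lines enter some.

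Directions turned as follows, all without passing the threshold except RASSF4. Quantile normalization turned SOCS1 (-0.016) and BRCA1 (0.068) in MOLM-13, CDH1 (-0.15) and RASSF1 (-0.0012) in SKM-1, and CDH1 on the mean (-0.25). Library weights turned CDH1 on the mean (-0.043), DAPK1 in MOLM-14 (-0.17) and RASSF1 in OCI-AML3 (0.024) and SKM-1 (-0.011). Without the 6 shallow libraries CDH1 on the mean (-0.13), DAPK1 in MOLM-14 (-0.84) and OCI-AML3 (-0.13) and RASSF1 in OCI-AML3 (0.056) turned. Without MOLM-14 the mean was -0.19 for CDH1 and -0.0067 for RASSF1, and without SKM-1 -0.037 for SFRP1. Over the 3 shallower lines alone SFRP1 was at -0.049, and over the deep lines alone PYCARD was at -0.066, RASSF2 at -0.039 and RASSF4 at -0.50 (limma, adjusted p = 4.1e-05). With 1 library left out, CDH1 on the mean ran from -0.15 to 0.32, DAPK1 in OCI-AML3 from -0.071 to 0.44, RASSF1 from -0.066 to 0.031 in OCI-AML3 and -0.040 to 0.028 in SKM-1, and PYCARD from -0.085 to 0.31 in KG-1 and -0.079 to 0.071 in SKM-1.

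The replicate numbers are shared between arms. Libraries with the same number had deviations with r above 0.1 in 6 of 15 pairs (range -0.02 to 0.15). In the 3 shallower lines this r ran from 0.07 to 0.15, and in the deep lines from -0.02 to 0.04. The main fit did not take the numbers as pairs, so it leaves out what same-number libraries of the shallower lines share. With the replicate block, 7 tests by line, 3 genes on the mean, 2 for unequal responses and 51 pathway genes passed, SOCS1 in SKM-1 was gained (0.99, limma, adjusted p = 0.0181), and 12 of 15 DMSO libraries correlated best with their own number. With quantile normalization SFRP1 did not pass in SKM-1 (limma, adjusted p = 0.0912) or MOLM-14 (0.0573), and without the shallow libraries SOCS1 did not in OCI-AML3 (0.0597). Gained without the shallow libraries were SFRP1 on the mean (0.63, limma, adjusted p = 0.00094) and in KG-1 (1.18, 0.0247), SOCS1 in SKM-1 (0.99, 0.0245) and CDH1 in OCI-AML3 (-1.45, 0.0312). Library weights gave SFRP1 on the mean (0.60, limma, adjusted p = 0.00374). Limits are few libraries per group, shallow libraries in 3 lines in which 1 read is worth up to 10.3, unknown strand setting, and no methylation data.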
